A study of Mus musculus with 16 samples.

Results

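The S100 genes encode small calcium-binding proteins, and 10 of them, S100a1, S100a4, S100a6, S100a8, S100a9, S100a10, S100a11, S100a13, S100a14 and S100a16, were followed here across 2 mouse mammary tumor cell lines and a drug treatment. The genes were chosen by symbol, and all 10 symbols matched 1 Ensembl gene each among the 33072 genes of the count table. RNA sequencing was run on 16 cultures in 4 groups of 4: metastatic 4T1 cells treated with vehicle (DMSO), 4T1 cells treated with CIX, non-metastatic 67NR cells treated with vehicle, and 67NR cells treated with CIX. Both lines derive from the same spontaneous mammary tumor of a BALB/c mouse, and the study describes no genetic change made to either. CIX, an inhibitor of the group IVA cytosolic phospholipase A2 (cPLA2α), was given at 15 µM for 24 h. Each line is a single cell line in culture, without the stroma, vessels or immune cells of a tumor.

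Most S100 proteins bind calcium through a pair of EF-hand motifs, usually as dimers, and then expose a surface that binds target proteins. Inside cells they act on the cytoskeleton, on annexins and on membrane repair. Several are also released and bind receptors such as RAGE (encoded by Ager) and Toll-like receptor 4. S100a4 binds non-muscle myosin heavy chain IIA and is known for promoting cell motility and metastasis. S100a8 and S100a9 together form calprotectin, the abundant calcium-binding complex of neutrophils. S100a10 pairs with annexin A2 at the plasma membrane and, on the cell surface, promotes the activation of plasminogen.

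All 10 genes lie on chromosome 3 of the mouse genome (GRCm38). The first 8 lie within 185 kb, at chr3:90511034-90695721, and S100a11 and S100a10 lie at chr3:93520488-93564643, 2.82 Mb further along. S100a1 (minus strand) and S100a13 (plus strand) are arranged head to head, with 42 bases between the gene models. Their RefSeq start sites are 105 bases apart, so that the 300-base windows around the starts share 204 bases.

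The promoter windows of 5 genes are shown: those of S100a4, S100a6, S100a8 and S100a16, which were called between the untreated lines, and that of S100a11, which held the most motif matches. Each window runs 5′ to 3′ on the strand of the gene, from 250 bases before the RefSeq start site to 50 bases after it (RefSeq, GRCm38.p6). Capitals mark matches, on either strand, to the TATA box (TATAAA), the AP-1 element (TGANTCA), the GC box (GGGCGG) or the E-box (CACGTG). The S100a4 window is chr3:90603520-90603819 (plus strand), the S100a6 window chr3:90612644-90612943 (plus strand), the S100a8 window chr3:90668821-90669120 (plus strand), the S100a16 window chr3:90540896-90541195 (plus strand, the one of 2 windows of that gene that held a match) and the S100a11 window chr3:93520246-93520545 (plus strand).
S100a4: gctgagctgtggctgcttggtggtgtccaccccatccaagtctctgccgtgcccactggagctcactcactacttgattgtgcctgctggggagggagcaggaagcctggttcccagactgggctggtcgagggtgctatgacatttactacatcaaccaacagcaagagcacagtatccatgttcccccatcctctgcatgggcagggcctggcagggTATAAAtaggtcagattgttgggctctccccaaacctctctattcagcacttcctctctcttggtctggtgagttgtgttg
S100a6: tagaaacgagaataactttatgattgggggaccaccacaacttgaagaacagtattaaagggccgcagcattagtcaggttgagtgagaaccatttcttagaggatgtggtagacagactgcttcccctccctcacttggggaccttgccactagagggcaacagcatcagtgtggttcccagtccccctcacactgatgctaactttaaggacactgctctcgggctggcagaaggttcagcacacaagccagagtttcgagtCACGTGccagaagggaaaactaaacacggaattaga
S100a8: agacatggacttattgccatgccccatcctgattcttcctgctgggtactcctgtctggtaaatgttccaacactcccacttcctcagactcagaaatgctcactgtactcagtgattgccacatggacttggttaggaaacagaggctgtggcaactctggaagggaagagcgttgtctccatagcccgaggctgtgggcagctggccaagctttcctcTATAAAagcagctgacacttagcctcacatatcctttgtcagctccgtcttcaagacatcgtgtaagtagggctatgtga
S100a16: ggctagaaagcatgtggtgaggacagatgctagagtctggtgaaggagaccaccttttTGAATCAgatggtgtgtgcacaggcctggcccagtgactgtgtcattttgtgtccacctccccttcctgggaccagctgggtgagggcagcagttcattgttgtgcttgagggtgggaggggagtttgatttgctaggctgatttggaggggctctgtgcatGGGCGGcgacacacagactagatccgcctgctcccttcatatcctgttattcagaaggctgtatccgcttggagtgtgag
S100a11: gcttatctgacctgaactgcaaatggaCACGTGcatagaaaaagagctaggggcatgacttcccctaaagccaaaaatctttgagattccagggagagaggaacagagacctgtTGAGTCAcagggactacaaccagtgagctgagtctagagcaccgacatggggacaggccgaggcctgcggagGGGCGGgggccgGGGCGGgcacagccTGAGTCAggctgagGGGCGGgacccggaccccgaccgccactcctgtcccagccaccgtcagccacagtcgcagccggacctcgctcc

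S100a4 and S100a8 carried a TATA box at the usual distance, beginning 31 and 30 bases before the start. S100a9 carried one that began at the start itself. Of all 32851 RefSeq windows, 13.6% held this motif. AP-1 elements stood in the S100a11 window, at -136 and -38, and in the S100a16 window, at -192, against 7.81% of all windows. GC boxes stood in S100a11 (3 matches), S100a16 and S100a9, against 35.7% of windows, and E-boxes in S100a6 and S100a11, against 7.15%. No window of the 8 genes with an entry (9 windows) held a STAT element (TTCNNNGAA), which 8.3% of all windows held, or a match to the NF-kB element, which 8.46% held. S100a10 and S100a14 had no entry. None of the motifs overlapped another. A match says only that the letters are present in the window.

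The libraries held 21715700 to 29450629 estimated counts. Within groups, 67NR vehicle sample 13 stood apart, with a chi-square per gene of 84.6 to 98 against the other 67NR vehicle samples, which differed from each other by 16.7 to 19.9. 4T1 CIX sample 4 differed from its group by 60 to 89.7, where the remaining samples differed by 25.2 to 42.4, and the 4T1 vehicle samples differed from each other by 30.8 to 108. 4T1 vehicle sample 3 and 4T1 CIX sample 4 had the highest level of each of the 7 S100 genes expressed in their group, and 67NR CIX sample 2 had the highest of 6 of 8. The labels do not say whether the samples numbered 1 to 4, 1 of each group, shared a culture day, so the counts and fold changes of the 10 S100 genes were also computed without them. The epithelial markers (Epcam, Cdh1, Krt8, Krt18, Krt19 and 2 others) summed to 1996 to 2209 TPM (transcripts per 1000000 transcripts) in 4T1 vehicle cells and to 1.05 to 3.99 in 67NR vehicle cells, and the mesenchymal markers to 1404 to 1821 and 4040 to 5056 TPM. Of 11 myeloid markers, the general leukocyte gene Ptprc was at a mean of 0.56 TPM in 4T1 vehicle cells and 0.0193 in 67NR vehicle cells, and Adgre1 was at 0 in every sample. Cd68 and Ltf, which epithelial cells can also express, made up most of the summed myeloid list of 162 to 216 TPM in 4T1 vehicle cells. With CIX the mesenchymal sum was 2621 to 3108 TPM in 4T1 and 6518 to 7370 TPM in 67NR, above all vehicle samples of the same line. The epithelial sum in 4T1 CIX cells was 2016 to 2188 TPM. Vim made up most of the mesenchymal sum, with means of 997 TPM in 4T1 vehicle, 2238 in 4T1 CIX, 4278 in 67NR vehicle and 6426 in 67NR CIX cells. Other markers of the list differed from it. Fn1 was higher in 4T1 than in 67NR vehicle cells (540 against 390 TPM). With CIX in 67NR, 3 of the 5 mesenchymal markers tested were higher and 2 lower, among them Pdgfrb (12.1 to 7.12 TPM). The part of any other cell type in the results below was not tested.

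A gene was taken as expressed in a group when all 4 samples had at least 1 TPM, an abundance per transcript length that allows genes to be compared with each other. S100a1, S100a4, S100a6, S100a10, S100a11 and S100a13 were expressed in all 4 groups. S100a8 was expressed in both 4T1 groups and in neither 67NR group, and S100a16 in both 67NR groups and in neither 4T1 group. S100a14 reached the limit only in 67NR CIX cells. S100a9 was close to absent: its estimated count was 0 to 2 in the 4T1 samples and 0 in all 8 67NR samples, where a count of 0 allows up to 3 counts in a library. In these cultures, therefore, S100a8 transcripts were counted without a like amount of the transcript of its calprotectin partner.

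**Figure D1:**
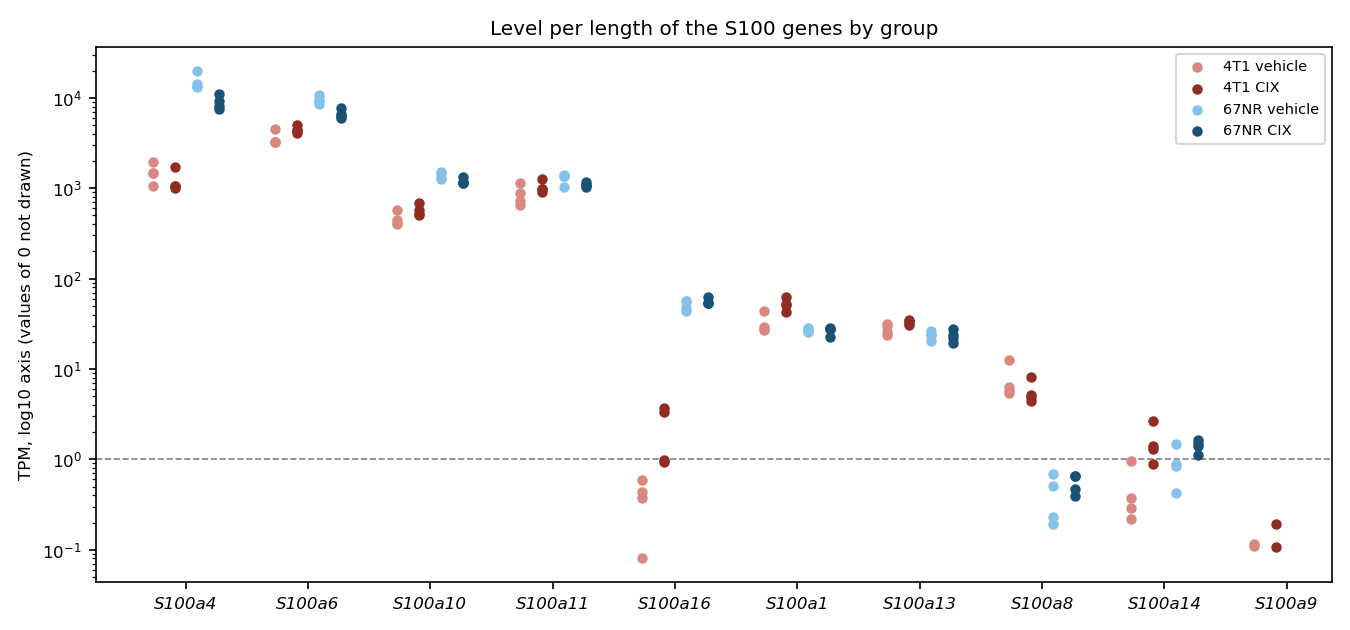
TPM of each S100 gene (log10 axis) in each of the 16 samples, colored by group; each point is 1 sample, the dashed line is the 1 TPM limit and values of 0 are not drawn. S100a4 and S100a6 sit highest, S100a16 lies above 44 TPM in 67NR cells and below 4 TPM in 4T1 cells, and S100a8 shows the opposite order.

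S100a6, S100a4, S100a10 and S100a11 were the 4 most abundant of the genes in every group, and S100a1 and S100a13 lay far below them. In 4T1 vehicle cells S100a6 led with a mean of 3549 TPM ± 624 (SD, n = 4), above S100a4 at 1491 ± 364. Next came S100a11 at 848 ± 222, whose range overlapped that of S100a4, and then S100a10 at 457 ± 77.1. In 67NR vehicle cells the order of the first pair was the other way round, with S100a4 at 15146 TPM ± 3001 and S100a6 at 9476 ± 834, and their ranges did not overlap. S100a10 (1389 ± 127) and S100a11 (1294 ± 180) were next there and could not be separated. S100a1 and S100a13, the head-to-head pair, overlapped in level in 3 of the groups, at 32 and 27.7 TPM in 4T1 vehicle cells, 27.1 and 23.4 in 67NR vehicle cells and 26.6 and 23 in 67NR CIX cells. In 4T1 CIX cells the pair separated, with S100a1 at 42.8 to 62.7 TPM and S100a13 at 30.9 to 34.6.

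Together the 10 genes made up 0.641% ± 0.122 (SD, n = 4) of all TPM in 4T1 vehicle cells, 0.737% ± 0.0928 in 4T1 CIX cells, 2.74% ± 0.229 in 67NR vehicle cells and 1.79% ± 0.244 in 67NR CIX cells. S100a4 and S100a6 supplied 75.6% to 92.2% of that sum in every sample. The ratio of S100a4 to S100a6 was 0.419 ± 0.0645 in 4T1 vehicle cells and 0.268 ± 0.052 in 4T1 CIX cells. It was 1.62 ± 0.447 in 67NR vehicle cells, where sample 13 had 2.28 and the others 1.29 to 1.5, and 1.34 ± 0.0885 in 67NR CIX cells.

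**Figure D2:**
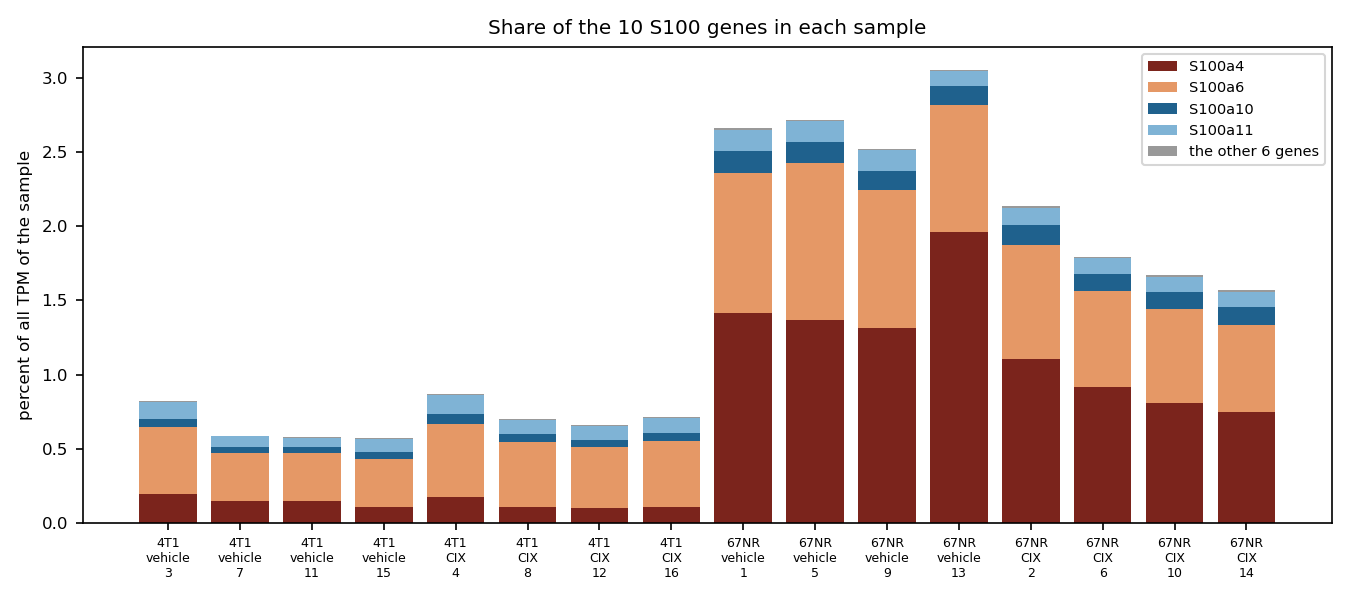
Percent of all TPM of a sample (y axis) taken by S100a4, S100a6, S100a10, S100a11 and the other 6 genes, stacked, for each of the 16 samples (x axis, group and sample number). The bars of 4T1 cells lie between 0.572% and 0.871%, those of 67NR cells between 1.57% and 3.06%, and all 4 67NR CIX bars are lower than the lowest 67NR vehicle bar.

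The first comparison asks how the lines differ before treatment. From here on, levels are CPM, counts per 1000000 counts of the library, on a scale common to the 16 samples, and differences are log2 fold changes from limma-voom with their standard error (SE) and Benjamini-Hochberg adjusted p; a gene is called changed when the adjusted p is below 0.001. Between vehicle-treated 4T1 and 67NR cells, 5 of the 9 S100 genes tested were called, 4 lower and 1 higher in 4T1. Of all 12605 genes tested, 46.3% were called, 21.8% lower and 24.5% higher in 4T1, and the S100 count is near that background. The groups did not overlap for 5 of the S100 genes, against 65.6% of all genes. S100a8, S100a14 and S100a16 entered this test and that of the response difference through only 1 of the lines, so their values in both are a description.

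S100a4 showed the widest gap in absolute level. Its level was 318, 465, 484 and 616 CPM in the 4T1 vehicle samples and 4291, 4498, 4701 and 6875 CPM in the 67NR vehicle samples. Every 67NR sample lay far above every 4T1 sample, and sample 13 was the highest. The log2 fold change, 4T1 against 67NR, was -3.45 (SE 0.21, adjusted p = 6.76e-07), or 10.9-fold lower in the metastatic line. In 49.2% of its 31-base words S100a4 matches the gene model Gm42674, but that model held only 0 to 49 counts in any sample, against 7732 or more for S100a4.

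S100a6, also called calcyclin, which binds annexins and the calcyclin-binding protein, was at 1364, 1402, 1471 and 1967 CPM in 4T1 vehicle cells and at 4182, 4199, 4351 and 4849 CPM in 67NR vehicle cells. The groups were well apart, with a log2 fold change of -1.52 (SE 0.12, adjusted p = 2.86e-06), 2.86-fold lower in 4T1. S100a10 was at 183, 185, 191 and 254 CPM in 4T1 and at 601, 628, 684 and 719 CPM in 67NR. It was 3.26-fold lower in 4T1 (log2 fold change -1.70, SE 0.12, adjusted p = 1.28e-06), again without overlap.

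S100a16, a family member found in many tissues, was nearly restricted to 67NR among these lines. The 4T1 vehicle samples had 0.0431, 0.206, 0.247 and 0.35 CPM, which are 1 to 8 counts, and the 67NR vehicle samples had 29.2, 29.3, 35 and 35.7 CPM. The fitted log2 fold change was -7.36 (95% confidence interval -8.37 to -6.35). S100a8 went the other way, with 1.89, 2.2, 2.32 and 4.71 CPM in 4T1 (46 to 114 counts) and 0.0853 to 0.278 CPM in 67NR (2 to 7 counts). Its log2 fold change was 3.96 (95% confidence interval 2.79 to 5.13). All 4T1 samples lay above all 67NR samples, and sample 3 was the highest.

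S100a11, a partner of annexin A1, had a log2 fold change of -0.72 (SE 0.16, adjusted p = 0.0031) and was not called. Its values were 261, 275, 326 and 443 CPM in 4T1 vehicle cells and 440, 550, 553 and 571 CPM in 67NR vehicle cells, and the groups met at 4T1 sample 3 and 67NR sample 13. Without 4T1 vehicle sample 3 the log2 fold change was -0.93 with an adjusted p of 0.000112, past the threshold. It was past the threshold in 6 of 14 alternatives, among them DESeq2, sample quality weights, all 16 samples in a common fit and the samples numbered 1 to 4 left out. S100a11 shares 48.9% of its 31-base words with processed copies such as Gm12854, and the split of reads between them is uncertain. In sample 13, Gm12854 had 513 CPM, against 157 to 185 in the other 67NR vehicle samples. The summed level of both was 403 to 558 CPM in 4T1 vehicle cells and 710 to 953 in 67NR vehicle cells, without overlap, and the sum had a log2 fold change of -0.77 (SE 0.133, adjusted p = 0.000583).

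S100a1 and S100a13 differed little between the untreated lines, with log2 fold changes of 0.13 (95% confidence interval -0.25 to 0.50, adjusted p = 0.518) and 0.15 (-0.16 to 0.46, adjusted p = 0.357). S100a1 is best known from muscle, where it acts on the calcium pump of the sarcoplasmic reticulum, and S100a13 takes part in the release of proteins that lack a signal peptide, such as Fgf1 and interleukin 1α. S100a14 was low in both lines, at 0.165 to 0.743 CPM in 4T1 and 0.384 to 1.19 CPM in 67NR (log2 fold change -1.15).

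**Figure D3:**
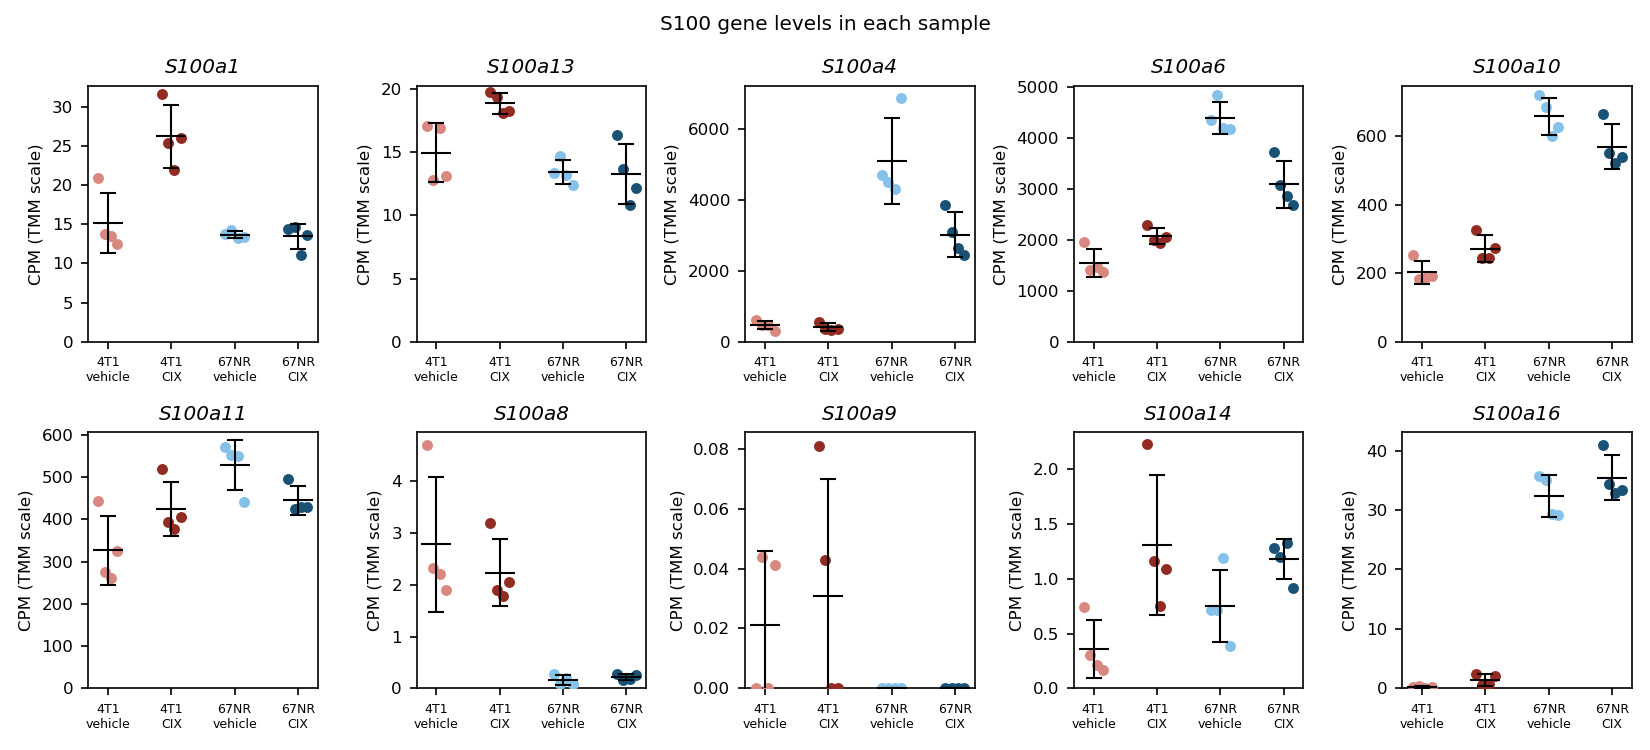
Level of each S100 gene in CPM (linear y axes from 0) in the 16 samples by group; points are samples and the bars show the mean and the SD of 4 samples. S100a4, S100a6, S100a10 and S100a16 are higher in 67NR cells and S100a8 in 4T1 cells; within 4T1 the CIX points of S100a1 lie above all vehicle points, and within 67NR the CIX points of S100a4 and S100a6 lie below all vehicle points.

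The next comparison asks what CIX did in the metastatic line. None of the 7 S100 genes tested in 4T1 cells was called (0 of 7, limma-voom), where 9.34% of all 11659 genes were. At an unadjusted p below 0.05 there were 4 of 7 (S100a1, S100a6, S100a10 and S100a13), against 51.2% of all genes. edgeR's quasi-likelihood test called 0, and DESeq2 called S100a1, where it called 26.6% of all genes. In the same comparison the mesenchymal marker Vim rose by 1.24 on the log2 scale (adjusted p = 4.25e-05) and 1 of 5 epithelial markers tested, Epcam, fell by 0.78 (adjusted p = 0.000127). The median of those 5 was 0.14, with 3 above 0 and 2 below. The part of these markers in the S100 values was not tested. The median log2 fold change of the 7 genes was 0.38, against -0.01 over all genes tested, and 5 lay above 0.

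S100a1 had the largest difference among them. The vehicle samples had 12.5, 13.5, 13.8 and 20.9 CPM and the CIX samples 21.9, 25.4, 26 and 31.6 CPM. All 4 CIX samples lay above all 4 vehicle samples, though vehicle sample 3 lay just below the lowest CIX sample. The log2 fold change was 0.79 (SE 0.19, adjusted p = 0.00799), or 1.73-fold, short of the threshold. Its neighbor S100a13 had 12.8, 13.1, 16.9 and 17.1 CPM with vehicle and 18.1, 18.3, 19.4 and 19.8 CPM with CIX, a log2 fold change of 0.33 (SE 0.14, adjusted p = 0.0783). Of the 7 genes tested, S100a1 and S100a13 were those whose groups did not overlap, and 40.0% of all genes tested did not.

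S100a6 had 1364, 1402, 1471 and 1967 CPM with vehicle and 1937, 2005, 2054 and 2296 CPM with CIX, and the groups met only through vehicle sample 3. Its log2 fold change was 0.41 (SE 0.12, adjusted p = 0.0205). S100a10 had 244, 246, 273 and 326 CPM with CIX, a log2 fold change of 0.41 (SE 0.14, adjusted p = 0.04), and its vehicle sample 3 (254 CPM) lay inside the CIX range. S100a11 had 377, 394, 405 and 518 CPM with CIX, a log2 fold change of 0.38 (SE 0.17, adjusted p = 0.106). Added to Gm12854, its log2 fold change was 0.23 (adjusted p = 0.197).

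S100a4 and S100a8 had fold changes below 0. S100a4 had 341, 349, 355 and 572 CPM with CIX against 318 to 616 with vehicle, and the ranges overlapped almost fully. Its log2 fold change of -0.23 had a 95% confidence interval of -0.74 to 0.27 (adjusted p = 0.423). S100a8 had 1.79, 1.89, 2.06 and 3.2 CPM with CIX, a log2 fold change of -0.28 (95% confidence interval -1.02 to 0.46, adjusted p = 0.522). Without vehicle sample 3 it was 0.01.

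S100a14 and S100a16 were too low in 4T1 for the TPM filter. S100a16 had 0.0808, 0.373, 0.432 and 0.59 TPM with vehicle and 0.925, 0.98, 3.33 and 3.72 TPM with CIX, so all CIX samples lay above all vehicle samples. The mean log2(TPM + 1) differed by 1.13 (exact permutation test, two-sided, p = 0.0286, the smallest that 4 against 4 samples can give). S100a14 had 0.221, 0.289, 0.369 and 0.961 TPM with vehicle and 0.893, 1.29, 1.41 and 2.68 TPM with CIX. The mean log2(TPM + 1) differed by 0.80 (exact permutation test, two-sided, p = 0.0571). Fitted with no filter, the log2 fold changes were 2.63 (adjusted p = 0.0184) for S100a16 and 1.96 (adjusted p = 0.0173) for S100a14. Even after CIX, S100a16 in 4T1 stayed at a mean of 2.24 TPM, against 51.4 TPM in 67NR vehicle cells.

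In the non-metastatic line, none of the 8 S100 genes tested was called (0 of 8, limma-voom), and few genes were in all, 0.389% of 11560. At an unadjusted p below 0.05 there were 4 of 8 (S100a4, S100a6, S100a10 and S100a11), against 32.8% of all genes. edgeR called 0, and DESeq2 called S100a4 and S100a6, where it called 8.98% of all genes. S100a14, which was expressed in all CIX samples and 1 vehicle sample, is included in these counts.

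S100a4 had 4291, 4498, 4701 and 6875 CPM with vehicle and 2442, 2647, 3106 and 3866 CPM with CIX. Every CIX sample lay below every vehicle sample. The log2 fold change was -0.77 (SE 0.19, 95% confidence interval -1.20 to -0.34, adjusted p = 0.0255), 1.7-fold lower. Only 5.31% of the genes tested had a larger change in size. S100a6 had 2689, 2873, 3084 and 3733 CPM with CIX against 4182 to 4849 with vehicle, also without overlap, and a log2 fold change of -0.53 (SE 0.10, adjusted p = 0.00901). The groups failed to overlap for these 2 genes and for 23.4% of all genes.

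S100a10, the partner of annexin A2, had 523, 539, 551 and 665 CPM with CIX, a log2 fold change of -0.23 (SE 0.09, adjusted p = 0.116), and S100a11 had 424, 430, 430 and 496 CPM, a log2 fold change of -0.26 (SE 0.09, adjusted p = 0.0665). For both the CIX range overlapped that of vehicle. S100a1 and S100a13 each had a log2 fold change of -0.04, with 95% confidence intervals of -0.28 to 0.20 and -0.34 to 0.26. S100a16 stayed at 32.9 to 41 CPM with CIX (log2 fold change 0.12, SE 0.10, adjusted p = 0.47). S100a14 had 0.918 to 1.33 CPM with CIX against 0.384 to 1.19 with vehicle (log2 fold change 0.70, SE 0.32, adjusted p = 0.167). S100a8 stayed at 4 to 7 counts (exact permutation test, two-sided, p = 0.371), and S100a9 at 0.

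The last comparison tests whether the response to CIX differed between the lines, as the 4T1 log2 fold change minus that in 67NR. S100a6 was called, 1 of 9 S100 genes tested against 7.86% of all 12605 genes. Its difference was 0.94 (SE 0.16, 95% confidence interval 0.60 to 1.29, adjusted p = 0.000491): the level with CIX was higher than with vehicle in 4T1 (2073 against 1551 CPM) and lower in 67NR (3095 against 4395 CPM). The call held in 4 of the 16 fits that left out 1 sample, with adjusted p values of 6.45e-05 to 0.00164, while the difference stayed at 0.88 to 1.06. Without the samples numbered 1 to 4 it was 1.10 (adjusted p = 6.81e-05). The response of Vim also differed between the lines (0.66, adjusted p = 0.000264).

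S100a10 had a difference of 0.63 (SE 0.17, adjusted p = 0.0102), S100a11 of 0.64 (SE 0.21, adjusted p = 0.0286) and S100a1 of 0.82 (SE 0.22, adjusted p = 0.0118), none past the threshold. Without the samples numbered 1 to 4, S100a10 was past it (0.68, adjusted p = 0.000575). Without 4T1 vehicle sample 3 and 67NR vehicle sample 13, S100a11 was past it (0.88, adjusted p = 0.000777). For S100a4 the difference was 0.53 with a 95% confidence interval of -0.12 to 1.18 (adjusted p = 0.219), so that a like response in both lines and one more than 2-fold apart both lay within the interval. S100a13 had a difference of 0.37 (adjusted p = 0.166). As a description, the difference was 2.45 for S100a16, with its 4T1 level at or below 2.35 CPM in all samples, 1.19 for S100a14 and -0.76 for S100a8.

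**Figure D4:**
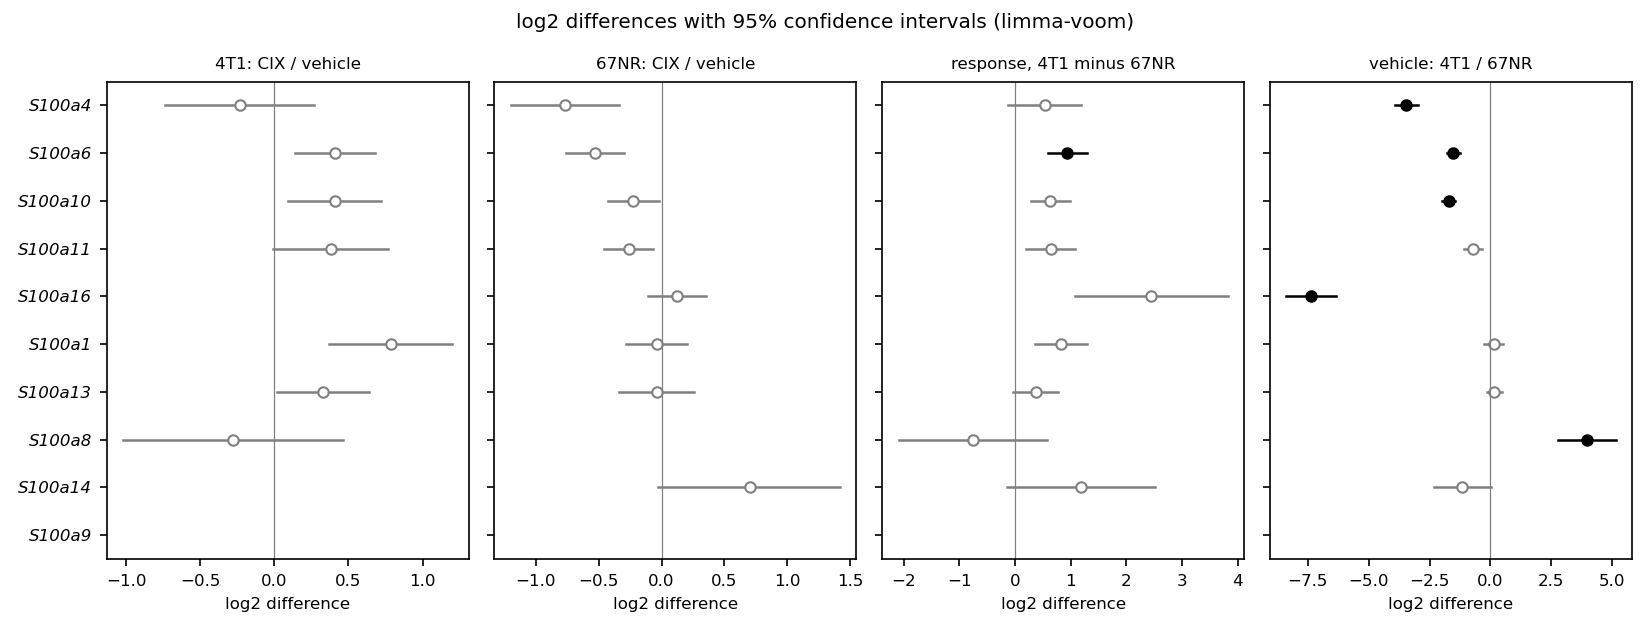
Log2 differences (x axes, with their own scale in each panel) of the S100 genes tested in each of the 4 comparisons; points are limma-voom estimates, lines the 95% confidence intervals, and filled black points have an adjusted p below 0.001. S100a6 is the filled point in the panel of the response difference, at 0.94, and 5 genes are filled in the panel of the untreated lines.

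The partners of these proteins were counted from fixed lists, to be read against the share of all genes called with CIX, 9.34% in 4T1 and 0.389% in 67NR. Among the annexins and membrane partners, 0 of 6 tested genes were called in 4T1 and 0 of 6 in 67NR. Anxa2, which encodes the annexin that binds S100a10, had a log2 fold change of 0.27 (adjusted p = 0.0688) in 4T1 and -0.46 (adjusted p = 0.00452) in 67NR, and the difference between them, 0.73, was called (SE 0.13, adjusted p = 0.000751). For the response difference, 1 of 6 of these partners, 1 of 11 intracellular targets (Metap2, 0.70, adjusted p = 0.000542) and 1 of 16 other EF-hand genes (the calpain subunit gene Capns1, 1.21, adjusted p = 0.000321) were called, against 7.86% of all genes, while 0 of 7 receptors and 0 of 6 genes of the plasminogen system were. Of the intracellular targets, 2 of 10 rose in 4T1 and 0 of 10 were called in 67NR. Myh9, the heavy chain of non-muscle myosin IIA bound by S100a4, rose by 0.84 on the log2 scale in 4T1 (SE 0.12, adjusted p = 0.000753), and Metap2, a methionine aminopeptidase, by 0.74 (SE 0.10, adjusted p = 0.000406). In 67NR the log2 fold change of Myh9 was 0.44 (adjusted p = 0.0208).

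Of the receptors for extracellular S100 proteins, 1 of 7 tested in 4T1 was called. Tlr4, through which S100a8 and S100a9 act on myeloid cells, fell by 0.79 on the log2 scale with CIX (SE 0.12, adjusted p = 0.00095), from 34.4 to 19.1 TPM. In 67NR 0 of 6 were called, and Tlr4 had a log2 fold change of -0.36 (adjusted p = 0.155). Whether the response of Tlr4 differed between the lines did not pass the test (-0.43, SE 0.20, adjusted p = 0.135). Ager, which encodes RAGE and is named here after its values were seen, was at a mean of 0.106 to 0.201 TPM in the 4 groups.

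Genes of the plasminogen system were not called with CIX in either line (0 of 6 in 4T1 and 0 of 4 in 67NR). Between the untreated lines, 4 of 6 were higher in 4T1, where 24.5% of all genes were. Plau (urokinase, 310 TPM in 4T1 against 0.133 in 67NR) and Serpine2 entered that test only through 4T1, so their calls are a description. Plat, tissue plasminogen activator, was at 32.9 TPM in 4T1 and 7.27 TPM in 67NR (log2 fold change 2.09, SE 0.12, adjusted p = 4.36e-07). Of 16 other EF-hand genes, 1 rose with CIX in 4T1, the calpain subunit gene Capn2 (log2 fold change 0.64, SE 0.09, adjusted p = 0.000563), and 0 were called in 67NR. Between the untreated lines 8 of the 16 were lower in 4T1 and 3 higher, against 21.8% and 24.5% of all genes tested.

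Few neighbors of the S100 genes on chromosome 3 were expressed highly enough to be tested. Of 93 other genes between S100a1 and S100a10, 6 could be tested in 4T1, and 1 was called with CIX: Lce1g, a gene of the cornified envelope, at chr3:92750148-92752338, fell by 3.01 on the log2 scale (SE 0.39, adjusted p = 0.000431). In 67NR 0 of 7 were called. Between the untreated lines 2 of 7 were called, S100a5 and Lce1g, in opposite directions (-4.67 and 2.90), against 46.3% of all genes; S100a5 entered the test only through 67NR, so its call is a description.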

How the data were processed

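RNA sequencing (TruSeq stranded mRNA libraries, single reads, 1 flowcell) was run on 16 cultures, 4 biological replicates for each cell line and treatment. The deposited values are estimated counts per Ensembl gene, which the authors made with Salmon 0.12 on mouse GRCm38 transcripts and summed with tximport; the submitters' processing notes name GRCh38, but all identifiers are of mouse genes. The counts were assumed to be length-scaled, and TPM was computed by dividing by the mean transcript length. The scaling is not stated. A look at the lowest values could not decide it, because only values near 1 were taken. All TPM levels, the expressed calls and the TPM filter rest on this assumption. The study calls the replicates biological; nothing says how far apart their cultures were, so p-values measure the spread between these samples.

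Estimated counts were rounded and tested with limma-voom (limma 3.58.1, edgeR 4.0.16 for TMM scaling, R 4.3.3), with Benjamini-Hochberg adjusted p below 0.001 over all genes tested. Genes with TPM under 1 in more than 3 of the 8 samples of a comparison were left out; for the line and response comparisons a gene stayed if it passed in either line. Genes left out were compared by an exact permutation test on log2(TPM + 1). Alternatives were edgeR's quasi-likelihood test, DESeq2 1.42.0, other scalings, filters and pseudocounts, and leaving out samples. Coordinates are from GENCODE on GRCm38 and promoters from RefSeq (GRCm38.p6). All 10 genes were named in each comparison, with the other S100 genes, and from each other list at most 4 called genes by size of change. The genes and lists were chosen with earlier results of these data known. Intervals on counts of 0 cover counting error only.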

Additional observations from a re-analysis of the deposited data

Results flagged for a closer look

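Of 36 sets of 4 levels that were examined (an S100 gene in a group), 7 had a sample separated from the others by more than Dixon's 95% limit; chance gives about 1 in 20, or 1.8. In 4T1 vehicle cells sample 3 was the high one for S100a1 (20.9 CPM, others 12.5 to 13.8), S100a8 (4.71 CPM, others 1.89 to 2.32) and S100a10 (254 CPM, others 183 to 191). In 4T1 CIX cells sample 4 had 572 CPM of S100a4, where the others had 341 to 355. In 67NR vehicle cells sample 13 had 6875 CPM of S100a4 (others 4291 to 4701) and only 440 CPM of S100a11 (others 550 to 571). In 67NR CIX cells sample 2 had 496 CPM of S100a11, where the others had 424 to 430. 5 of the 7 cases lie in samples numbered 1 to 4, and the remaining 2 in sample 13.

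The response of S100a6 to CIX differed between the lines by 0.94 on the log2 scale (4T1 minus 67NR, limma-voom adjusted p = 0.000491), with the level higher than vehicle in 4T1 and lower in 67NR.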

How the results depend on the processing

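The 5 genes called between the untreated lines kept their direction and their call in each alternative that could test them. For S100a8 and S100a16, which entered only through the line where they are high, this is a description and no test of robustness. With a TPM filter over the 8 vehicle samples, 3 were called, since S100a8 and S100a16 were then left out. With CIX in 4T1, 3 S100 genes passed an adjusted p below 0.05 (42.7% of all genes did), and 1 (S100a1) passed 0.001 with DESeq2, with sample quality weights and with all 16 samples in a common fit. In 67NR 2 passed an adjusted p below 0.05 (17.8% of all genes), and 2 passed 0.001 with DESeq2. For the response difference the count was 5 at an adjusted p below 0.05 (29.4% of all genes), 2 with DESeq2 (S100a6 and S100a16), 3 with sample quality weights (S100a1, S100a6 and S100a11), 0 with limma on log2(TPM + 0.1), and 0 to 1 when 1 sample was left out. Chosen after seeing the data, leaving out the samples numbered 1 to 4 gave 2 (S100a6 and S100a10), and leaving out 4T1 vehicle sample 3 with 67NR vehicle sample 13 gave 2 (S100a6 and S100a11). No share of all genes is given for the vehicle-sample filter, quality weights, the common fit, log2(TPM + 0.1) or fits that left out samples. Those S100 counts therefore have no background to be read against.

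Directions turned only where no gene was called. With 1 sample left out, S100a8 in 4T1 ranged from -0.46 to 0.01, S100a1 and S100a13 in 67NR from -0.08 to 0.05 and from -0.13 to 0.05, and S100a1 between the untreated lines from -0.09 to 0.17. The last was -0.08 without the samples numbered 1 to 4 and -0.10 without samples 3 and 13, where S100a13 was -0.00. Over all genes, DESeq2 called 3096 in 4T1 (1089 by limma-voom), 1038 in 67NR (45) and 1980 for the response difference (991), and limma on log2(TPM + 1) called 27 in 67NR. The cause of these differences was not tested. TPM levels depend on the transcript length used: 30 of 40 group means moved by more than 1 SD with the longest transcript. S100a11 then had 1379 in place of 848 TPM in 4T1 vehicle cells and passed S100a4 in 4T1 CIX cells (1673 against 1638). It also passed S100a10 in 67NR vehicle cells (2048 against 1897) and in 67NR CIX cells (1715 against 1636). Depth limits S100a8, S100a9, S100a14 and S100a16, which rest on few counts in some groups. No paired analysis was run. The sample numbers run in consecutive sets of 4, each with 1 sample of every group. The labels do not say whether the samples of a set shared a culture day or batch. All fits therefore treated the samples as unpaired, and what pairing by these sets would change was not tested.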

Other observations

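Among the other S100 genes, S100a7a, a relative of the psoriasin genes, was the most abundant in 67NR vehicle cells, at 85.7, 103, 117 and 140 CPM. With CIX it had 23.6, 39.1, 71.1 and 78.2 CPM, below all vehicle samples (limma-voom log2 fold change -1.22, SE 0.34, adjusted p = 0.0383). In 4T1 it varied widely between samples of one treatment, from 0.561 to 27.9 CPM with vehicle and from 15.8 to 72.6 CPM with CIX (log2 fold change 1.91, SE 1.01, adjusted p = 0.157). S100a5, which lies between S100a4 and S100a6 on the chromosome, was at 16 to 23 counts in the 67NR vehicle samples and at 0 to 2 in the 4T1 vehicle samples. S100a3, next to S100a4, was at a mean of 14 CPM in 4T1 and 13.3 CPM in 67NR with vehicle (log2 fold change 0.03, SE 0.22, adjusted p = 0.899). S100a2 had 6 to 13 counts in the 4T1 vehicle samples and 1 to 5 in the other 12 samples. S100b, S100g and S100z had at most 5 counts in any sample.

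The iron-binding protein gene Ltf, counted among the myeloid markers, had a mean of 91.8 TPM (63.5 to 143) in 4T1 vehicle cells and 8.9 TPM (0.522 to 25.8) in 4T1 CIX cells, a log2 fold change of -4.55 (SE 0.85, adjusted p = 0.00261) that did not pass the threshold. Cd68 rose in both lines, by 1.25 on the log2 scale in 4T1 (adjusted p = 0.000683) and by 2.08 in 67NR (adjusted p = 0.000297). S100a8, an S100 gene known from myeloid cells, did not pass the test in 4T1, and its partner S100a9 was too low to be tested.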
